A study of Homo sapiens with 7 samples.

Results

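The shortest contacts of an H3K27ac HiChIP map, those between DNA segments 5 to 15 kb apart, were described in 3 human cancer cell lines. Each separate pair of unlike anchors on a chromosome was taken as 1 loop, and a short loop was one whose anchor midpoints lay 5 kb to 15 kb apart. By this rule 36631 of 163530 loops were short in Ishikawa, 4330 of 42027 in T-47D and 14260 of 149226 in LNCaP, or 55221 of 354783 in all. Ishikawa, an endometrial adenocarcinoma line, gave 4 samples cut with DpnII, of which 2 received DMSO and 2 received 10 nM 17β-estradiol for 1 h. T-47D, a ductal breast carcinoma line, gave 1 sample, and LNCaP, a prostate carcinoma line, gave 2, all cut with MboI and with no treatment named. Every sample used the same antibody against H3K27ac and serum-containing medium. The study's methods place cells in hormone-depleted medium with charcoal-stripped serum ahead of estrogen inductions. No induction is named for T-47D or LNCaP. Each line is a single established culture line, and its samples were pooled into 1 list. Values below therefore carry no replicate spread, intervals are 95% Wilson intervals that cover counting error only, and vehicle and estradiol were not compared. Cell line, restriction enzyme, sonication, read length, depth and any difference in hormone depletion cannot be told apart between Ishikawa and the other lines.

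HiChIP joins DNA ends that lie close together in the fixed nucleus and then selects joined fragments that carry a chosen protein. Acetylation of lysine 27 on histone H3 marks active promoters and enhancers, so the retained contacts are largely among such elements. Contact frequency between points of a chromosome falls steeply with their distance, and neighbouring segments on one fibre meet often whether or not a regulatory contact exists. Contacts of a few kilobases can join a promoter to an enhancer in its own intron, to an alternative start site, or to the promoter of the next gene.

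The anchors are built from restriction fragments, and both DpnII and MboI cut at GATC. All 14224 outer and inner edges of the 7112 T-47D anchors in short loops lay within 3 bases of a GATC on GRCh37, as did all 114528 edges in Ishikawa and all 43808 in LNCaP. From the inner edge of one anchor of a short loop to that of the other, a median of 12 GATC sites lay in Ishikawa cells, 19 in T-47D and 16 in LNCaP. These counts include the sites at the inner edges themselves. Inner edges of one loop that all 3 lists held, between the promoters of DNAJC9 and MRPS16, are printed to show where the digested ends lay in each list, with the GATC at the edge in capitals.
T-47D, right edge of the DNAJC9 anchor, chr10:75007689-75007724, plus strand: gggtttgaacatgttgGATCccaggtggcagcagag
LNCaP, right edge of the DNAJC9 anchor, chr10:75008764-75008799, plus strand: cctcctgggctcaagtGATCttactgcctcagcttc
LNCaP, left edge of the MRPS16 anchor, chr10:75010526-75010561, plus strand: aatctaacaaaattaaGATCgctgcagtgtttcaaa
Ishikawa, right edge of the DNAJC9 anchor, chr10:75010240-75010275, plus strand: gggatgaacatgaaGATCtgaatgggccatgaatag
Ishikawa, left edge of the MRPS16 anchor, chr10:75010823-75010858, plus strand: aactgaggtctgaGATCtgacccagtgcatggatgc

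The 5 edges fell on 5 different GATC sites, so the same contact was listed with other boundaries in each line. The gap between the anchors was widest in T-47D, narrower in LNCaP and narrowest in Ishikawa.

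Promoters at the ends of 3 well supported short loops are shown next, from 200 bases before to 30 bases after the outermost annotated start site (GRCh37, 5′ to 3′ along the gene). DNAJC9 encodes a co-chaperone of heat shock proteins, MRPS16 a protein of the mitochondrial ribosome, RGL2 an exchange factor for Ral GTPases and ARRDC1 an arrestin-domain adaptor. Capitals mark any cut site GATC, the AP-1 site TGANTCA, the forkhead site TGTTTAC and the ETS site CCGGAAG on either strand.
DNAJC9 promoter, chr10:75006984-75007213, minus strand: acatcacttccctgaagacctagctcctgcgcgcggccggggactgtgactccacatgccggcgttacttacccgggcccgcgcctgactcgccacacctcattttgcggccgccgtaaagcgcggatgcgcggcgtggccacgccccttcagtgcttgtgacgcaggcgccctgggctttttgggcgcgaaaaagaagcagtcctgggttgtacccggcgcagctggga
MRPS16 promoter, chr10:75012422-75012651, minus strand: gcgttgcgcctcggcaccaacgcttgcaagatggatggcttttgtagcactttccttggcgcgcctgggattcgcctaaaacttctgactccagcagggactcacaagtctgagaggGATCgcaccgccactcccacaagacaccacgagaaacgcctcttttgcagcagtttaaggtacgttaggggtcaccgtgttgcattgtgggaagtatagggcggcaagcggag
RGL2 promoter, chr6:33266690-33266919, minus strand: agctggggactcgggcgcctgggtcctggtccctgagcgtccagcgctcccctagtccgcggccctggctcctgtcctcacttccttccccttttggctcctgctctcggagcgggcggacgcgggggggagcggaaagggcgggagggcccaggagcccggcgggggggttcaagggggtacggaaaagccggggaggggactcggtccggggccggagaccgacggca
ARRDC1 promoter, chr9:140499937-140500166, plus strand: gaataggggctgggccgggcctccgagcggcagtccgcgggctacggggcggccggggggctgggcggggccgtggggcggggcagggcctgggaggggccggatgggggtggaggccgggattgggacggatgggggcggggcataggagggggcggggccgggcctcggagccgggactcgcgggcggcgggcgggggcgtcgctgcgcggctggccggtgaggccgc

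The only such match was a GATC starting 83 bases before the MRPS16 start site. Guanine and cytosine made up 65.7% of the DNAJC9 window, 56.1% of MRPS16, 73.5% of RGL2 and 83.0% of ARRDC1, and the windows held 25, 15, 22 and 30 CpG dinucleotides.

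Short loops carried more read pairs each than longer loops in every list. They made up 22.4% of Ishikawa loops (22.2 to 22.6), 10.3% of T-47D loops (10.0 to 10.6) and 9.56% of LNCaP loops (9.41 to 9.71), but held 33.0%, 21.4% and 17.6% of the read pairs. The median short loop had 7 read pairs in Ishikawa cells, 11 in T-47D and 11 in LNCaP, beside medians of 4, 5 and 5 over all loops. The highest counts were 190, 244 and 621. The lowest count in the lists was 3, and 20.6%, 8.57% and 9.13% of short loops lay at that minimum, compared with 52.8%, 32.4% and 27.7% of loops over 15 kb. Ishikawa counts are sums over separately sorted parts, and short loops of 1 part had a median of 3 read pairs. The minimum may thus have acted on each part, so shares at a minimum and thinned shares are not like measures between Ishikawa and the other lists. At least 10 read pairs supported 36.2%, 54.8% and 56.5% of short loops and 11.2%, 16.8% and 24.3% of longer ones. The share of short loops in a list moved with the minimum: at 10 read pairs it was 48.1% in Ishikawa cells, 26.5% in T-47D and 19.7% in LNCaP. When counts were thinned to the 351260 read pairs that the T-47D loops held, the expected shares were 38.6%, 10.3% and 19.3%, so the order of T-47D and LNCaP turned.

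Read pairs per loop changed little across 15 kb, while the lists did change at 5 kb. Loops of 5 to 6 kb had a median of 8 read pairs in Ishikawa cells, 14 in T-47D and 12 in LNCaP, and loops of 14 to 15 kb had 6, 8.5 and 10. Just outside, loops of 15 to 16 kb had medians of 6, 9 and 9. Below the lower limit, 505 Ishikawa loops of 4 to 5 kb had a median of 5 and 222 of T-47D a median of 15.5, while LNCaP listed none, and at 5 to 6 kb the lists held 2214, 372 and 1634 loops. The short loop nearest to 5 kb in LNCaP spanned 5000 bp on chromosome 20 with 20 read pairs, and the one nearest to 15 kb spanned 15000 bp on chromosome 17 with 13.

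**Figure D1:**
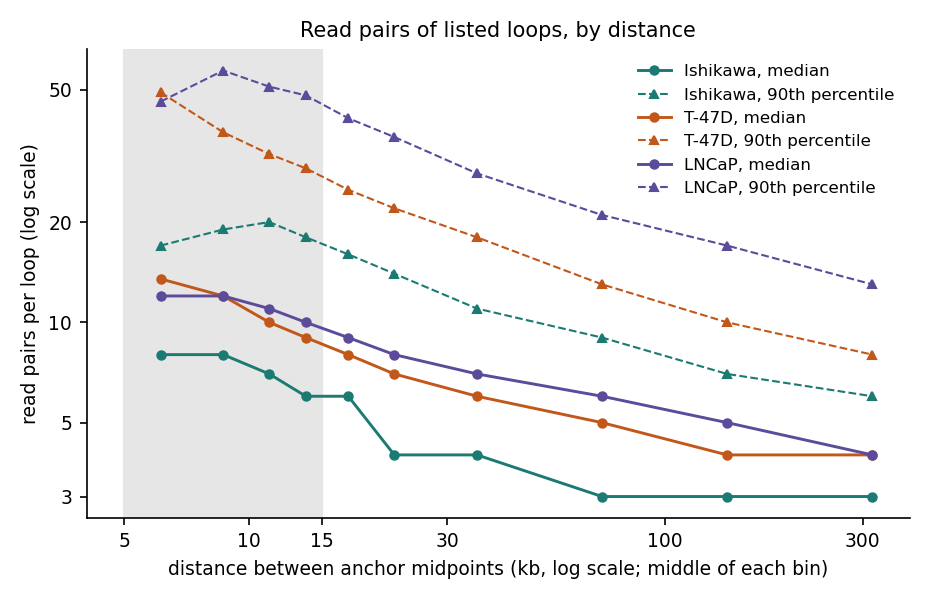
Read pairs per loop (log axis) against the distance between anchor midpoints in kb (log axis), as the median (solid) and the 90th percentile (dashed) of each distance bin for the 3 lists, with 5 to 15 kb shaded. Medians in the shaded range lie between 6 and 8 in Ishikawa, 9 and 13.5 in T-47D and 10 and 12 in LNCaP. At 15 to 20 kb they are 6, 8 and 9, and beyond 50 kb Ishikawa lies at the minimum of 3.

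Most pairs of anchors that lay this close were listed as a loop at the depth of each list. Of 44666 possible pairs of Ishikawa anchors with midpoints 5 to 15 kb apart, 82.0% were joined (81.7 to 82.4), and the share was 87.3% of 4960 in T-47D (86.3 to 88.2) and 84.1% of 16966 in LNCaP (83.5 to 84.6). At 15 to 25 kb it was 58.6%, 75.7% and 69.4%, and at 25 to 100 kb 20.5%, 49.0% and 45.2%. Between the nearest and the farthest of 4 equal bins within the short range, the share fell from 87.2% to 74.1% in Ishikawa, from 89.7% to 83.7% in T-47D and from 89.4% to 78.1% in LNCaP. An anchor enters a list only through a listed pair, which favours joined pairs. Restricted to anchors that were also listed in some other kind of pair, a check chosen after the data were seen, the shares were 81.5%, 86.4% and 83.8%. Thinned to the T-47D read pairs, 39.5% of the 44666 Ishikawa pairs and 39.0% of the 16966 LNCaP pairs were expected to remain joined. These possible pairs were those of the full lists, from which thinning would also remove anchors. The thinned shares can therefore not be set beside the 87.3% of T-47D.

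**Figure D2:**
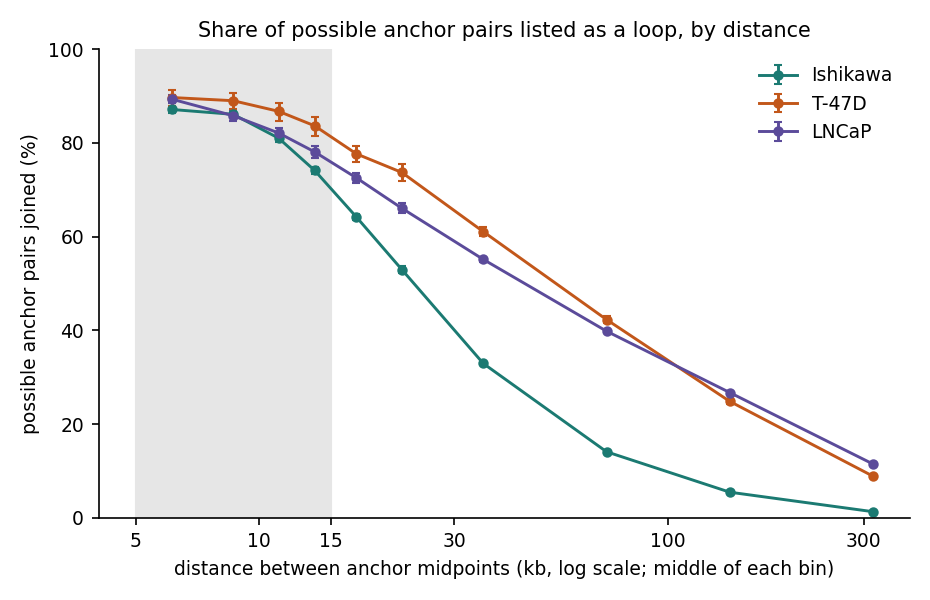
Percent of all possible pairs of a list's anchors that were listed as a loop, against the distance between anchor midpoints in kb (log axis), with 95% Wilson intervals and 5 to 15 kb shaded. In the first bin drawn, which starts at 5 kb, the 3 lists lie between 87.2% and 89.7%. At 7.5 to 10 kb Ishikawa (86.1%) and LNCaP (85.8%) are close, and from 10 kb on Ishikawa is the lowest.

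Short loops mostly joined neighbours. No other anchor of the list lay between the anchors in 95.2% of short loops in Ishikawa cells, 91.6% in T-47D and 88.3% in LNCaP, and at 15 to 25 kb the shares were 57.7%, 67.2% and 53.6%. The median anchor of a short loop was 5.03 kb wide in Ishikawa cells, against 2.62 kb in T-47D cells and 3.50 kb in LNCaP, and the median gap between the pair was 3.84, 6.99 and 5.28 kb. The smallest gap was 501 bp in Ishikawa and LNCaP and 505 bp in T-47D. In Ishikawa the median anchor was thus wider than the median gap, and in the other lines it was narrower.

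The Ishikawa list was made of 4 separately sorted parts, which nothing assigns to a sample or treatment. Short loops were 28.5%, 33.1%, 29.2% and 28.1% of the loops of the 4 parts. Over the whole list, 59.1% of short loops (58.6 to 59.7) occurred in 2 or more parts and 8.44% in all 4. The share in 2 or more parts was 44.9% at 15 to 25 kb, 27.4% at 25 to 100 kb and 13.4% beyond. Short loops of 1 part had a median of 3 read pairs and those of all 4 parts 23.

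Many anchors of short loops also had read pairs within themselves. In Ishikawa 48.8% of the 57264 anchors in short loops were listed as joined to themselves, beside 46.8% of anchors found only in longer loops, and in T-47D it was 73.3% of 7112 beside 65.8%. LNCaP listed no such pair and no loop under 5 kb, so its list seems to have been filtered differently. The median base composition was close between the 2 kinds of anchor, with 41.8% guanine and cytosine against 41.0% in Ishikawa, 51.1% against 49.1% in T-47D and 42.8% against 42.2% in LNCaP.

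Promoters stood at a smaller share of short loops than of long ones. A promoter, taken as 500 bp centred on any annotated start site of 20163 protein-coding genes, lay in at least 1 anchor of 28.7% of Ishikawa short loops (28.2 to 29.2), 67.6% of T-47D (66.2 to 69.0) and 49.2% of LNCaP (48.4 to 50.1). The share rose with distance in all 3 lists and reached 38.2%, 78.8% and 63.3% over 100 kb. Promoters stood at both anchors of 6.16%, 28.1% and 12.8% of short loops. In 4.36%, 11.1% and 7.22% both anchors held a promoter of the same gene, which happened in 0.523%, 0.444% and 0.514% of loops over 100 kb. With only the outermost start site of each gene, the share with a promoter at either anchor was 15.1%, 53.9% and 34.5%, in the same order of lines.

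**Figure D3:**
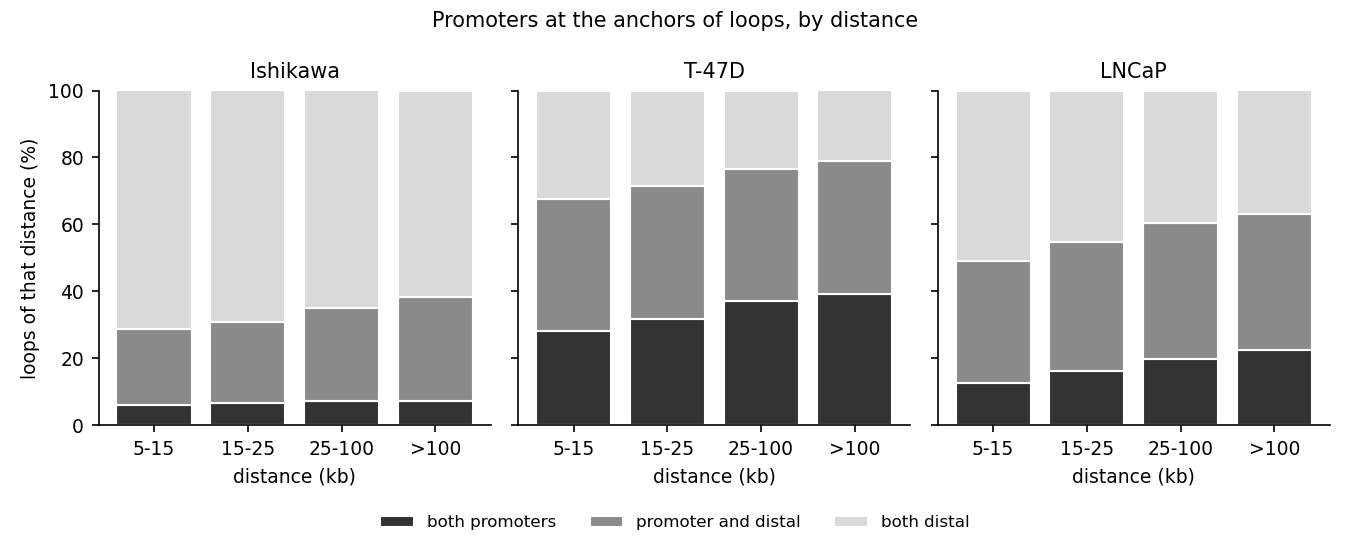
Percent of loops with promoters at both anchors (dark), at 1 anchor (grey) or at neither (light) in 4 distance classes in kb, for each list. In all 3 lists the light share is largest at 5 to 15 kb, where it is 71.3% in Ishikawa cells, 32.4% in T-47D and 50.8% in LNCaP.

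Many short loops lay within 1 gene. Both anchors overlapped the body of 1 same gene in 49.5% of Ishikawa short loops, 51.8% of T-47D and 63.6% of LNCaP, beside 12.2%, 5.28% and 9.11% of loops over 100 kb. Pairs of non-promoter anchors inside 1 gene alone were 29.0%, 13.3% and 28.5% of short loops. Neither anchor touched a protein-coding gene in 38.3%, 16.5% and 19.7%. Where 1 gene's promoter was joined to a distal anchor, that anchor overlapped the gene's own body in 64.0% of 7503 loops in Ishikawa, 53.2% of 1478 in T-47D and 66.2% of 4530 in LNCaP. It covered the annotated end of the gene in 4.92%, 3.79% and 3.18%, beside 2.30%, 0.935% and 1.44% at 25 to 100 kb.

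The distal anchor lay downstream of the start site in 48.2% of these loops in Ishikawa (47.04 to 49.30), 49.9% in T-47D (47.3 to 52.4) and 54.3% in LNCaP (52.9 to 55.8). Only the LNCaP interval lay wholly above an even split, and it did so at 15 to 25 kb as well, with 54.7%. Where each anchor held the promoter of 1 different gene, the genes ran the same way in 59.7% of 464 loops in Ishikawa, 48.7% of 491 in T-47D and 52.1% of 486 in LNCaP. Genes running apart from each other made up 22.0%, 32.4% and 30.7%, and genes running toward each other 18.3%, 18.9% and 17.3%.

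Promoters at both anchors went with more read pairs in the lines of the MboI samples. The median short loop with 2 promoters had 14 read pairs in T-47D and 22 in LNCaP, beside 9 and 9 for loops with none. In Ishikawa the medians were 8 and 7.

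Short promoter loops reached a large part of the protein-coding genes. A promoter in at least 1 short loop was found for 7830 genes in Ishikawa cells (38.8%), 3501 in T-47D (17.4%) and 6251 in LNCaP (31.0%), and for 1369 genes (6.79%) in all 3 lists. Of the genes with any promoter loop, 67.8%, 35.3% and 53.4% had a short one. In 1045, 252 and 141 genes every listed promoter loop was short. Short loops held a median of 45.5%, 38.3% and 26.2% of the promoter read pairs of the genes that had them. Those genes had a median length of 37.5, 21.9 and 32.3 kb, beside 30.8, 37.5 and 34.5 kb for genes with longer promoter loops only. Of the T-47D genes, 69.4% also had a short promoter loop in LNCaP and 52.8% in Ishikawa, and 38.9% of the LNCaP genes and 23.6% of the Ishikawa genes had one in T-47D.

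Sequence matches in 300-base promoter windows, 250 bases before to 50 after the outermost start, were then counted. CCGGAAG on either strand occurred in 19.1% of the 1369 genes with a short promoter loop in all 3 lists (17.1 to 21.2) and in 11.8% of all promoters. The windows of the 1369 also held a median of 24 CpG dinucleotides and 63.3% guanine and cytosine, beside 18 and 60.3% over all promoters. CCGGAAG itself holds a CpG, and the part of base composition was not tested. It occurred in 16.2% of T-47D genes with a short loop and 18.5% of those with longer loops only, in 17.2% and 17.4% in LNCaP, and in 14.2% and 12.8% in Ishikawa. TGANTCA occurred in 3.58% of the genes in all 3 lists and 6.36% of all promoters, TGTTTAC in 2.12% and 2.80%, and GATC in 43.2% and 42.3%. GGTCA followed after 3 bases by TGACC, the full estrogen response element, stood in 11 of all promoter windows and in 0 of the 1369.

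Marker genes of each line were set against the share of all genes with a short promoter loop. Of 8 endometrial markers, 5 had a short promoter loop in Ishikawa (38.8% of all genes did) and 0 in T-47D and LNCaP. FOXJ1, a regulator of motile cilia, had 2 with 73 read pairs, EMX2 1 with 36, SOX17 1 with 17, PAX8 1 with 13 and WT1 1 with 6. The FOXJ1 anchor also holds the promoter of RNF157. Of 8 breast luminal markers, 5 had one in T-47D (17.4%), and 2 had one in each of Ishikawa and LNCaP. GATA3, a luminal transcription factor, had 2 with 275 read pairs in T-47D, and TRPS1, a zinc-finger repressor, had 3 with 385, and neither gene had any in the other lists. ESR1, the estrogen receptor, had 4 with 45 read pairs in T-47D and 4 with 46 in Ishikawa. TFAP2A had 2 with 55 in T-47D and 1 with 33 in LNCaP. MUC1 had 1 in each list, with 30 read pairs in T-47D, 8 in LNCaP and 3 in Ishikawa. PRLR and ELF5 had only longer promoter loops in T-47D, 26 and 8. PIP had no promoter loop of any span in T-47D, but 4 in Ishikawa and 1 in LNCaP, all longer. Of 8 prostate markers, 7 had a promoter loop of any span in LNCaP, 4 in Ishikawa and 3 in T-47D. A short one was listed for 3 in LNCaP, a count close to the 31.0% of all genes, 1 in Ishikawa and 1 in T-47D. TMPRSS2, an androgen-regulated protease, had 1 with 358 read pairs in LNCaP, 1 with 21 in Ishikawa and 1 with 11 in T-47D. KLK2, KLK3, HOXB13 and SLC45A3 had no short promoter loop in any list, although LNCaP held 61, 61, 46 and 32 longer ones. KLK2, KLK3 and KLK4 each had 1 promoter anchor in LNCaP with the same 61 loops and 2936 read pairs, so they are not separate counts. Spans run between anchor midpoints, so an anchor that covers several genes can be too wide to have any short loop. The lack of short loops at KLK2 and KLK3 in LNCaP is therefore not a result about these genes.

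The strongest short loops of T-47D stood at named genes. The first joined the TRPS1 promoter to its gene body on chromosome 8 with 244 read pairs, and no overlapping loop was listed in Ishikawa or LNCaP. The second, with 239, joined start sites of CUEDC1 between chr17:55966761-55971232 and chr17:55975488-55982112, and the third, with 228, joined the ANAPC2 and SSNA1 promoters to that of TPRN on chromosome 9. The fourth joined the first start sites of ARRDC1, whose sequence is printed above, to later ones, by 224 read pairs in T-47D and 148 in LNCaP. The fifth linked start sites of GATA3, chr10:8091348-8098536 and chr10:8099042-8102049, with 214. Over genes, HOXC6, a homeobox factor named here after its values were seen, had the most read pairs in short promoter loops, 568 over 5 loops, beside 112 in LNCaP and 21 in Ishikawa. RARA, the retinoic acid receptor alpha, followed with 524 over 6 loops, beside 10 in LNCaP and 31 in Ishikawa. Such gene counts sum over all start sites and need not be the same contact in each list.

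In LNCaP 3 of the 5 strongest short loops touched no protein-coding gene. They lay at chr12:61094934-61110508 with 621 read pairs, at chr17:46820367-46839427 with 585 and on chromosome 18 with 548, and none was listed in another line. The second in rank joined start sites of USP54 between chr10:75330672-75339288 and chr10:75342859-75355643 with 600 read pairs, beside 35 in Ishikawa. The fifth joined start sites of GDF15, a stress-induced cytokine, between chr19:18485112-18493391 and chr19:18494484-18501725 with 468, beside 16 in Ishikawa. USP54 also led the genes, with 1009 read pairs over 4 short promoter loops.

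The Ishikawa counts were lower, and 3 of the 5 strongest short loops lay off protein-coding genes. The first and second, with 190 and 188 read pairs, shared the anchor chr16:46414885-46422006 beside the unsequenced block at the centromere of chromosome 16. The anchor on its left was joined to itself by 370 read pairs, and T-47D listed the first of these loops with 8. The third lay on chromosome 8 with 133. The fourth, with 100, joined ITFG2 and NRIP2 to ITFG2 and TEX52 on chromosome 12, and the fifth, with 96, joined start sites of SEC22B, a vesicle-fusion protein, on chromosome 1. All 5 occurred in all 4 parts. Short loops were unevenly spread over the chromosomes of this list, with 24.7 per Mb on chromosome 12, 19.9 on chromosome 10, 18.1 on chromosome 17 and 20.5 on chromosome 19, while chromosomes 1 and 2 had 12.03 and 11.43. Chromosomes 17 and 19 were dense in the other lists too, with 8.51 and 8.74 per Mb in LNCaP and 4.37 and 3.89 in T-47D, beside 5.79 and 1.58 on chromosome 1. Chromosomes 12 and 10 had 5.55 and 4.77 per Mb in LNCaP and 1.58 and 1.39 in T-47D. On these 2 chromosomes of Ishikawa short loops were 16.2% and 16.7% of all loops, below the 22.4% of the whole list. The part of DNA copy number in this spread was not tested.

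Short loops ran together into chains through shared anchors. Single loops made up 63.8% of the 21747 chains in Ishikawa, 74.3% of 2963 in T-47D and 63.9% of 8335 in LNCaP, and chains of 5 or more loops held 14.2%, 10.5% and 16.01% of short loops. The largest Ishikawa chain covered chr12:633591-812553 at B4GALNT3 and NINJ2 with 21 loops and 350 read pairs, where T-47D had 1 short loop and LNCaP 0. The second covered chr17:72953493-73128737 with 20 loops over promoters of 8 genes, among them KCTD2, ATP5PD, MRPL58 and NT5C, and there T-47D had 7 and LNCaP 9. The third, at AMN1 and H3-5 on chromosome 12, had 17 loops. In T-47D the largest chain lay at MIDEAS and PNMA1 on chromosome 14 with 14 loops. The next, inside MED13L, which encodes a subunit of the Mediator kinase module, had 10 loops and 778 read pairs with 0 short loops there in the other lists, and the third, at TSC2 and NTHL1, had 10. The largest LNCaP chain spanned chr16:89355404-89559295 at ANKRD11 and SPG7 with 25 loops, followed by 15 in NCAM2, with no promoter in the chain, and 14 at SNTB2.

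Short loops of one line were listed in another to unequal extents. A loop counted as found when both of its anchors overlapped those of 1 loop of the other list by 1 bp or more. Of T-47D short loops, 1663 of 4330 were found in LNCaP, or 38.4% (37.0 to 39.9), against 38.9% of T-47D loops of any span. In Ishikawa 19.6% of T-47D short loops were found (18.4 to 20.8) against 9.93% of any span, and 15.4% of LNCaP short loops (14.78 to 15.97) against 6.41%. At 15 to 25 kb the shares were 44.1% for T-47D in LNCaP, 20.6% for T-47D in Ishikawa and 16.04% for LNCaP in Ishikawa. None of these lay below the share of short loops, so the excess over any span in Ishikawa was not particular to short loops. Read the other way, 11.2% of LNCaP short loops were found in T-47D, 2.12% of Ishikawa short loops in T-47D and 5.60% in LNCaP. The overlap rule mattered: with 50% of both anchors at both ends, 18.3%, 1.87% and 2.59% of short loops were found. Depth mattered as well: with every list thinned to the T-47D read pairs, the expected shares were 27.8% for T-47D in LNCaP, 9.64% for T-47D in Ishikawa and 9.75% for LNCaP in Ishikawa, and at 10 read pairs or more they were 41.4%, 8.98% and 7.498%. The lists also differ in anchor width, whose part in the sharing was not tested.

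The share joined was then taken over loops whose anchors were both present in the other list. Where both anchors of a T-47D short loop overlapped separate LNCaP anchors, 95.2% were joined there (94.1 to 96.1). The share was 71.5% for T-47D in Ishikawa (68.9 to 74.0) and 78.2% for LNCaP in Ishikawa (76.6 to 79.7). Of all possible pairs of anchors at this distance, 84.1% were joined in LNCaP and 82.0% in Ishikawa. These are not like measures, because a matching loop in the other list could have any span. Over 100 kb the shares of loops with both anchors met that were joined were 59.5% for T-47D in LNCaP, 9.97% for T-47D in Ishikawa and 6.86% for LNCaP in Ishikawa. Both anchors were met for 40.3%, 27.3% and 19.7% of short loops. In 4.48%, 7.53% and 6.45% of short loops a single anchor of the other list overlapped both anchors. These can include loops that also met a separate anchor, for which a match was still possible. Shared short loops of T-47D had a median of 14 read pairs and those not found in LNCaP 9. LNCaP held 49.3% of the T-47D short loops that had at least 20 read pairs and 24.0% of those with 3 or 4, and Ishikawa held 26.1% and 14.9%. Read pairs of shared short loops had a Spearman's rho of 0.41 over 1663 loops between T-47D and LNCaP, 0.0080 over 847 between T-47D and Ishikawa and 0.024 over 2191 between LNCaP and Ishikawa. These are descriptions across loops, which are not independent and share distance, anchor width and depth.

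**Figure D4:**
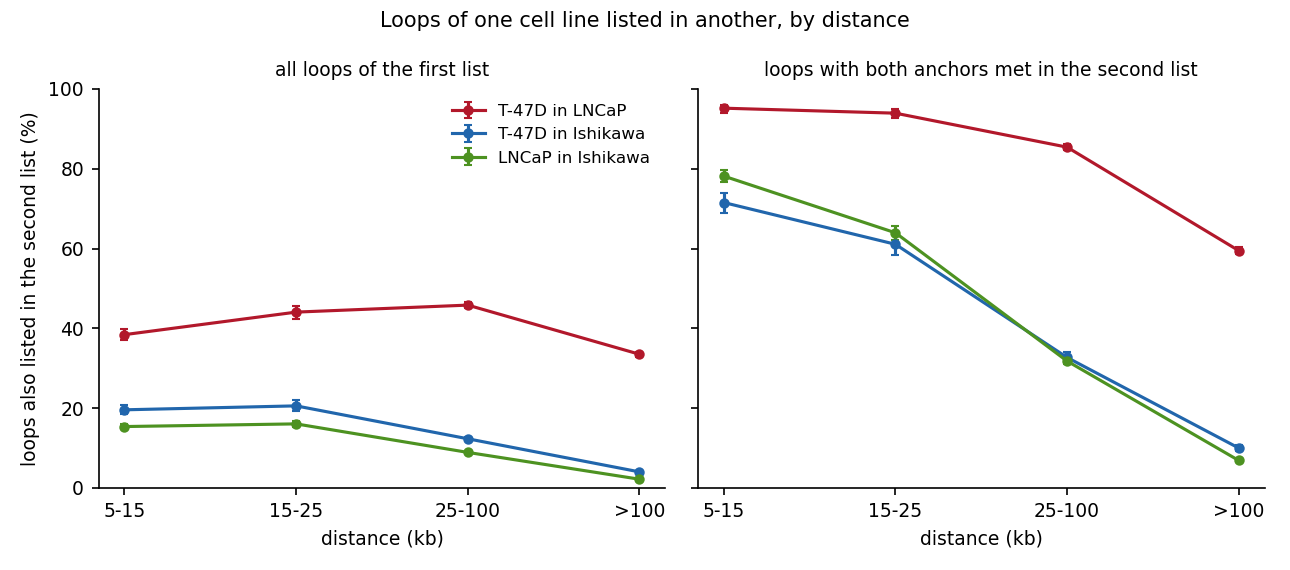
Percent of loops of one list also listed in another (y axis) by distance class in kb, with 95% Wilson intervals, over all loops of the first list (left) and over those whose anchors both met separate anchors of the second (right). On the right the short loops lie at 95.2%, 78.2% and 71.5% and the shares fall with distance.

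Only 321 of the 4330 T-47D short loops, or 7.41% (6.67 to 8.23), were short loops in both other lists as well. A promoter lay at either anchor of 91.0% of them and at both anchors of 60.7%, where the shares over all T-47D short loops were 67.6% and 28.1%. In Ishikawa 49.5% of the 321 matched a loop of 1 part and 13.4% a loop of all 4 parts.

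The 5 of these whose lowest percentile of read pairs over the 3 lists was highest had promoters at both ends. First came the loop from PFDN6, a subunit of the prefoldin chaperone, and WDR46, a nucleolar protein, to RGL2 on chromosome 6, whose read pairs numbered 113 in T-47D, 118 in LNCaP and 33 in Ishikawa. Its T-47D anchors were chr6:33256462-33258517 and chr6:33264258-33268080. The start sites of PFDN6 and RGL2, genes that face each other, lie 9.64 kb apart. The DNAJC9 to MRPS16 loop, between genes in tandem with starts 5.44 kb apart, had 77, 134 and 34 read pairs, and its T-47D anchors were chr10:75005829-75007704 and chr10:75011197-75013777. Next came TMEM184A to PSMG3, a proteasome assembly chaperone, on chromosome 7, with 59, 124 and 28. MAP3K12, a neuronal-stress kinase, to its own first start site and TARBP2, a partner of Dicer, on chromosome 12 had 52, 129 and 23. KCTD2 to ATP5PD, a subunit of the mitochondrial ATP synthase, on chromosome 17 had 44, 68 and 23. In each of the 5 the LNCaP count was the highest and the Ishikawa count the lowest. All but the last occurred in 4 Ishikawa parts, and the last in 3.

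**Figure D5:**
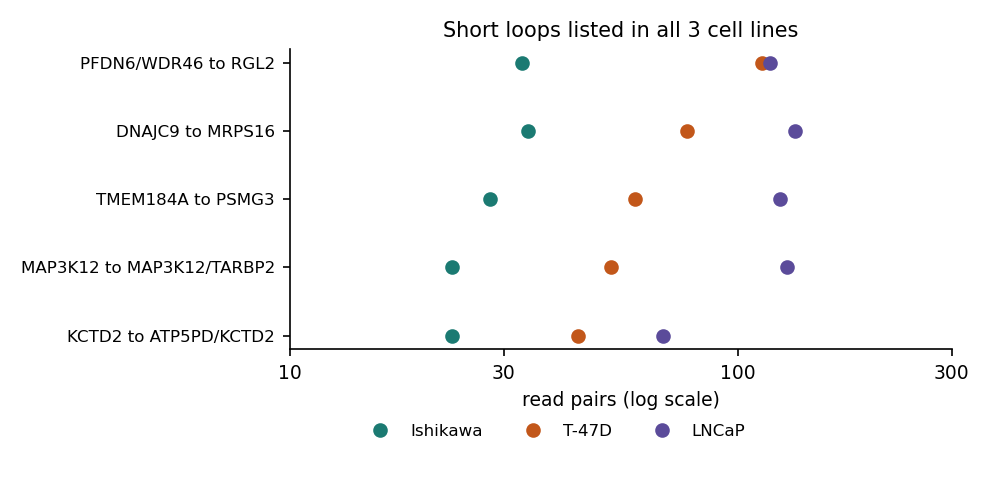
Read pairs (log axis) in each list of the 5 short loops held by all 3 lists with the highest lowest percentile of read pairs, named by the genes whose promoters lie at the left and right anchors. Points stand for single lists, between 23 and 134 read pairs, with Ishikawa lowest in every loop.

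Genes of the hormone and growth pathways were then counted among those with short promoter loops, with lists chosen by function. Among 24 estrogen-response genes, 10 had a short promoter loop in Ishikawa cells, 5 in T-47D and 9 in LNCaP, out of 14, 16 and 13 with a promoter loop of any span. Over all genes with a promoter loop the corresponding shares were 67.8%, 35.3% and 53.4%. GREB1, CCND1 and RARA had one in all lists. Counts of a gene here and below sum over all its start sites, and can come from different contacts in different lists. GREB1, a coregulator of the estrogen receptor, had 37 read pairs over 1 short loop in Ishikawa, 137 over 3 in T-47D and 132 over 3 in LNCaP. At CCND1, which encodes cyclin D1, a short loop ran downstream of the start in T-47D with 74 read pairs and in LNCaP with 101, and upstream in Ishikawa with 8. The progesterone receptor gene PGR, named after its values were seen, had 23 promoter loops in T-47D, of which 0 were short, and 1 short loop of 3 read pairs in Ishikawa.

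Of the genes the study perturbed, TGFA, a ligand of the EGF receptor, had no short promoter loop in any list. Its nearest Ishikawa loop lay just beyond the limit, between chr2:70778958-70788498 and chr2:70796519-70801831, with a span of 15447 bp and 9 read pairs. PEG10, an imprinted gene of retroviral origin, had 1 short loop, in T-47D, between chr7:94284214-94287723 and chr7:94290264-94293672, with 3 read pairs, the minimum of the list. That anchor also holds the promoter of SGCE.

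Among 20 androgen-response genes, 9 had a short promoter loop in Ishikawa cells, 4 in T-47D and 12 in LNCaP, out of 14, 10 and 20 with any promoter loop, beside 67.8%, 35.3% and 53.4% over all genes with one. TMPRSS2, PMEPA1 and HOMER2 had one in all lists. The LNCaP loop of TMPRSS2 joined chr21:42888286-42905250 to chr21:42906687-42912094. PMEPA1, a negative regulator of TGF-beta signalling, had 29 read pairs in LNCaP, 30 in T-47D and 7 in Ishikawa. HOMER2, a postsynaptic scaffold, had 142, 11 and 21. STEAP2, a metalloreductase also named after its values were seen, had 5077 read pairs in its LNCaP promoter loops, of which 58 were in short ones.

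Among 25 immediate-early genes, which respond to growth signals within minutes, 14 had a short promoter loop in Ishikawa cells, 8 in T-47D and 15 in LNCaP, out of 19, 21 and 21 with any promoter loop, where the shares over all such genes were again 67.8%, 35.3% and 53.4%. JUNB and EGR2 had one in all lists. JUNB, a subunit of AP-1, had 37 read pairs in Ishikawa cells, 3 in T-47D and 249 in LNCaP, in anchors that also hold the promoter of HOOK2. EGR2, a zinc-finger factor, had 6, 19 and 14, and in T-47D and LNCaP its short loop ran to the promoter of ADO.

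Among 22 chromatin and transcription regulators, 16 had a short promoter loop in Ishikawa cells, 6 in T-47D and 16 in LNCaP, out of 21, 20 and 21 with any (67.8%, 35.3% and 53.4% over all genes). Those with one in all lists included KMT2D, a histone methyltransferase, ARID1A, a subunit of the BAF remodeller, NCOA3, a coactivator of nuclear receptors, MED1, a Mediator subunit, and MAX, the partner of MYC. KMT2D had 58 read pairs in Ishikawa cells, 27 in T-47D and 36 in LNCaP, and MED1 had 14, 27 and 40. ARID1A had 7, 11 and 32, NCOA3 3, 27 and 28, and MAX 6, 8 and 49. The short loops of ARID1A lay at a different promoter anchor in each list. Those of MED1 in Ishikawa lay at another promoter anchor than those in T-47D and LNCaP.

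Among 13 cell cycle genes, 8 had a short promoter loop in Ishikawa cells, 7 in T-47D and 6 in LNCaP, out of 13, 11 and 11 with any (67.8%, 35.3% and 53.4% over all genes). CCND1, CDK2 and CDK4 had one in all lists. CDK2, the S-phase kinase, had 68 read pairs in Ishikawa cells, 29 in T-47D and 84 in LNCaP, and CDK4, the partner of cyclin D, had 19, 24 and 42.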

How the data were processed

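H3K27ac HiChIP loops of 7 samples were analysed as 3 deposited lists, 1 for each cell line. Per the labels and the study's methods, the authors aligned reads to hg19 with HiC-Pro, called loops with hichipper, kept loops of 3 or more reads that passed a false discovery rate, and combined samples. The deposited value of a pair of anchors is a count of read pairs, not scaled for depth, and the lists held 1512486 (Ishikawa), 660327 (T-47D) and 1805322 (LNCaP) read pairs, those within 1 anchor included. No column of any other sample was found, and no value could be tied to 1 sample, so no test between groups was made.

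Pairs of 2 different anchors on 1 chromosome were summed over the 4 sorted parts of the Ishikawa list. Pairs of an anchor with itself and pairs across chromosomes were left out of the loops. Promoters were 500 bp centred on all start sites of 20163 protein-coding genes (GENCODE release 44 lifted to GRCh37), without the mitochondrial genome. Sequences and GATC sites came from GRCh37, the same build as hg19 for these chromosomes. Python 3.11.15, pandas 2.3.3, scipy 1.17.1 and pysam 0.24.0 were used. Matching was tested on simulated data.

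The short loops, the gene lists and the rule for named items were chosen with earlier results of these data known. Named were the 5 strongest short loops and 3 largest chains of each list, the 5 loops held by all lists with the highest lowest percentile, loops at the limits, genes the study perturbed (TGFA and PEG10 are given) and list genes with a short promoter loop in all lists. Alternatives were minima of 5 and 10 read pairs, thinning, other spans, promoters and overlaps, and Ishikawa loops of 2 or more parts. Some genes and an edge sequence that these rules would include are not reported here.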

Additional observations from a re-analysis of the deposited data

Results flagged for a closer look

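Pairs of different anchors closer than 5 kb lie outside the short loops and entered no comparison. The Ishikawa list held 566 of them, with a median of 5 read pairs and a smallest span of 2.87 kb. The T-47D list held 456, with a median of 16 read pairs and a smallest span of 1.82 kb. The LNCaP list held 0, and its shortest loop spanned 5000 bp. They are listed here because they form a signal in data that the comparisons did not use. Of the possible T-47D anchor pairs under 5 kb, 94.0% were joined, and of the Ishikawa pairs 72.8%.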

How the results depend on the processing

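Each share was recomputed under the alternatives, 68 values in all, of which 12 stayed inside the 95% interval of the value as reported and 56 left it. With 5 read pairs or more, short loops made up 37.7% of Ishikawa, 16.1% of T-47D and 13.5% of LNCaP loops, had a promoter in 29.6%, 69.8% and 52.3%, and were 56.6%, 72.8% and 69.7% of possible anchor pairs. With 10 or more the shares were 48.1%, 26.5% and 19.7%, the promoter shares 33.0%, 72.4% and 57.8%, and the joined shares 29.7%, 47.8% and 47.5%. Thinned to the T-47D read pairs, Ishikawa and LNCaP gave 38.6% and 19.3% short loops, 31.1% and 58.3% with a promoter, and 39.5% and 39.0% joined. The joined shares at these settings, and for Ishikawa loops of several parts, kept the possible pairs of the full lists. Anchors left without a loop were not removed.

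With spans of 5 to 20 kb, the shares of loops were 30.8%, 14.6% and 13.4%, those joined 76.2%, 84.2% and 80.4%, and the promoter shares of Ishikawa and LNCaP 29.2% and 50.4%. Promoters of 2 kb gave 31.2%, 69.7% and 51.5%, and 1 start site per gene 15.1%, 53.9% and 34.5%. Ishikawa loops of 2 or more parts gave 39.2% short loops, 30.5% with a promoter and 48.5% joined. Restricting anchors to those listed in another kind of pair, chosen after seeing the data, gave 81.5% joined in Ishikawa.

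The share of T-47D short loops found in LNCaP was 41.4% at 10 read pairs in both lists, 27.8% after thinning, 40.2% at 5 to 20 kb and 18.3% at 50% overlap. For T-47D in Ishikawa it was 13.9% at 5 read pairs, 8.98% at 10, 9.64% after thinning, 1.87% at 50% overlap and 11.1% with loops of 2 or more parts. For LNCaP in Ishikawa the same settings gave 11.2%, 7.498%, 9.75%, 2.59% and 9.05%. Why these values moved was not tested.

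No paired analysis was possible because each list pools the samples of its cell line, and for the same reason samples were not left out in turn. Depth limits the low end: a loop of fewer than 3 read pairs is not listed, so a short loop missing from a list was not detectable there and is not shown to be absent.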
